A study of Mus musculus with 10 samples.

Results

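The cytosolic ribosomal protein genes encode the proteins that, with ribosomal RNA, build the ribosomes of the cytosol. They were taken from the deposited expression table of mouse proximal jejunum by name: protein-coding rows called Rpl or Rps followed by a digit, plus Rpsa, Rplp0, Rplp1 and Rplp2, leaving out the ribosomal S6 kinases and rows named as pseudogenes. This gave 85 genes of the 24368 rows. Of these, 77 encode core proteins of the ribosome: 31 of the small subunit, 43 of the large subunit and 3 of the stalk. The other 8 lie outside the core set (Rpl3l, Rpl22l1, Rpl39l, Rps27l, Rps27rt, Rpl36al, Rpl7l1 and Rps19bp1), and most of them are copies of a core gene. The genes lie on 19 chromosomes.

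The libraries came from 5 wild-type (WT) mice and 5 littermates lacking HuR in the intestinal epithelium (conditional knockout, cKO), with 1 library of total RNA per mouse. Elavl1 encodes HuR, an RNA-binding protein that recognises stretches rich in uridine, often with adenosine, and can alter the stability and translation of the messenger RNAs that carry them. The study set out to examine HuR in intestinal fat absorption. The whole proximal jejunum was sampled, so that cells in which the gene was not deleted contributed RNA. The sources used here do not give the Cre driver, the deleted exons, or the age and sex of the mice.

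Ribosomal protein genes are transcribed in nearly every cell, and their products are needed in equal numbers, since each ribosome holds a single copy of most of them. Their messenger RNAs begin with a run of pyrimidines at the cap, the 5′ terminal oligopyrimidine (TOP) tract, through which growth signals acting via mTORC1 and the La-related protein Larp1 control their translation and stability together. In the intestine, ribosome production is highest in the dividing crypt cells and falls as cells move onto the villus. Unassembled ribosomal proteins such as Rpl5 and Rpl11 bind Mdm2, which links ribosome production to p53.

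Because these genes share regulatory sequence at their starts, the region around the annotated transcription start is shown for 6 of the 7 genes with the largest fold changes in cKO and for the 2 with the lowest. Each run covers 80 bases before and 20 bases after the start, read 5′ to 3′ on the strand of the gene, from RefSeq promoters of build GRCm38.p6. Capitals mark a TOP-like tract, searched as a cytosine followed by at least 4 pyrimidines and beginning within 5 bases of the annotated start on the strand of the gene, or a match to CCGGAAG or AAGATGGC on either strand.
Rps13 (chr7:116334171-116334270, minus strand): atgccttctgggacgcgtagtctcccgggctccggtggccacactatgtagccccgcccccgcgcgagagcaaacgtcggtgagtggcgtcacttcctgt
Rps27l (chr9:66946006-66946105, plus strand): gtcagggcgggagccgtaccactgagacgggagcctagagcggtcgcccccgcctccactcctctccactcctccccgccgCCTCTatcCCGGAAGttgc
Rps15a (chr7:118116128-118116227, minus strand): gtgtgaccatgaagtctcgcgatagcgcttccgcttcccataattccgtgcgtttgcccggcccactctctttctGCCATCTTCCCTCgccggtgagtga
Rps25 (chr9:44407634-44407733, plus strand): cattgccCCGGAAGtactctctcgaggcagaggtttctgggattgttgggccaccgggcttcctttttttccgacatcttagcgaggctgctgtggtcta
Rpl12 (chr2:32961632-32961731, plus strand): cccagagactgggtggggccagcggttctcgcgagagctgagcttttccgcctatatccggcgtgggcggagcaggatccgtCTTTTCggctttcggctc
Rps18 (chr17:33955646-33955745, minus strand): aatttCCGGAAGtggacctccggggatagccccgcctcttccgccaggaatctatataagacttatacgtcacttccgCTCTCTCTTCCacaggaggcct
Rplp2 (chr7:141447571-141447670, plus strand): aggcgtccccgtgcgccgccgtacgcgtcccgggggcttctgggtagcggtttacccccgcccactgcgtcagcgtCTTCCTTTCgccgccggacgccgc
Rpl7a (chr2:26910727-26910826, plus strand): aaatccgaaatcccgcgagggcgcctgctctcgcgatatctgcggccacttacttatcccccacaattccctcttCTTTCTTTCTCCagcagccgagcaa
In Rps15a the capitals join the AAGATGGC match, which lies on the opposite strand, to the pyrimidine tract. CCGGAAG is the core of the ETS-type element bound by GABP, AAGATGGC that of YY1. Read on the opposite strand, CCGGAAG begins with a run that meets the pyrimidine rule, so these searches can overlap. No capitals stand in Rps13, which says only that these letters were not found in that window.

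Of the 85 genes, 65 had a RefSeq promoter entry, and motifs other than the tract were counted over 250 bases before to 50 after the start, among 27025 genes in all. A TOP-like tract was found in 30 of the 65 (46.2%), against 21.2% of all genes. The search depends on the annotated start, which lay 575 bases from the 5′ end of the gene in the deposited table for Rps25 and 336 for Rps18. In Rps25 a run of pyrimidines stands ahead of the stretch searched. A gene without a match may therefore still carry a tract. CCGGAAG occurred in 26 (40%) against 9.93%, and AAGATGGC in 6 (9.23%) against 3.19%. The TATA element TATAAA occurred in 7 (10.8%) against 15.7% of all genes. Among the tested genes with an entry, the median log2 fold change in cKO was 0.56 for the 29 with a match to the tract. It was 0.49 for the 32 without a match, and the ranges overlapped widely.

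Library sizes were alike, with 16942919 to 17809271 recovered reads in WT and 16063987 to 18927440 in cKO. The tissue label was borne out only as far as villus enterocytes. Their genes Fabp2 and Apoa4 were among the abundant transcripts, with WT means of 298965 and 132422 normalised reads. Genes that tell the parts of the small intestine apart were not examined. Elavl1 did not differ between the groups over the whole gene: it ran from 630.5 to 709 normalised reads in WT and from 556 to 725 in cKO (log2 fold change -0.08, limma adjusted p = 0.798). It therefore gave no check of the labels at the level of the gene, and exons could not be examined. Over all genes, 62 were called higher and 124 lower in cKO, and after scaling by library totals 69 higher and 76 lower. The clock gene Per2 set cKO 3 and cKO 5 apart, at 12.7 and 16 against 342 to 749 normalised reads elsewhere. Library cKO 1 had the highest share of mitochondrially encoded reads, 9.48%, against 2.69% to 6.09% elsewhere.

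Together the 85 ribosomal protein genes took 1.21%, 1.61%, 1.6%, 1.26% and 1.09% of normalised reads in WT 1, 3, 4, 5 and 6. They took 2.64%, 1.82%, 3.19%, 1.26% and 1.98% in cKO 1 to 5. The share was thus larger in 4 of the cKO libraries than in any WT library, while cKO 4 lay within the WT range. The means were 1.36% ± 0.238 (SD, n = 5) in WT and 2.18% ± 0.749 (SD, n = 5) in cKO. As these are bulk samples, more cells of a type that is rich in these transcripts and more of the transcripts per cell cannot be told apart.

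Of the 81 genes with a mean of at least 10 normalised reads, 80 had a higher fitted mean in cKO, against 51% of all 14062 genes tested. Their median log2 fold change was 0.51, a 1.42-fold difference, where all genes tested had 0.01, and single genes ran from -0.41 to 0.90. Only Rps27l passed the test (1 of 81, 1.23%, against 0.441% of all genes called higher and 1.32% called in either direction). A log2 fold change over 0.3 was reached by 72 of the 81 (88.9%), against 23.1% of all genes. An unadjusted p under 0.05 was found for 41, all with the higher mean in cKO, against 8.46% of all genes. The 81 genes were measured in the same 10 libraries and are not independent of each other.

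**Figure D1:**
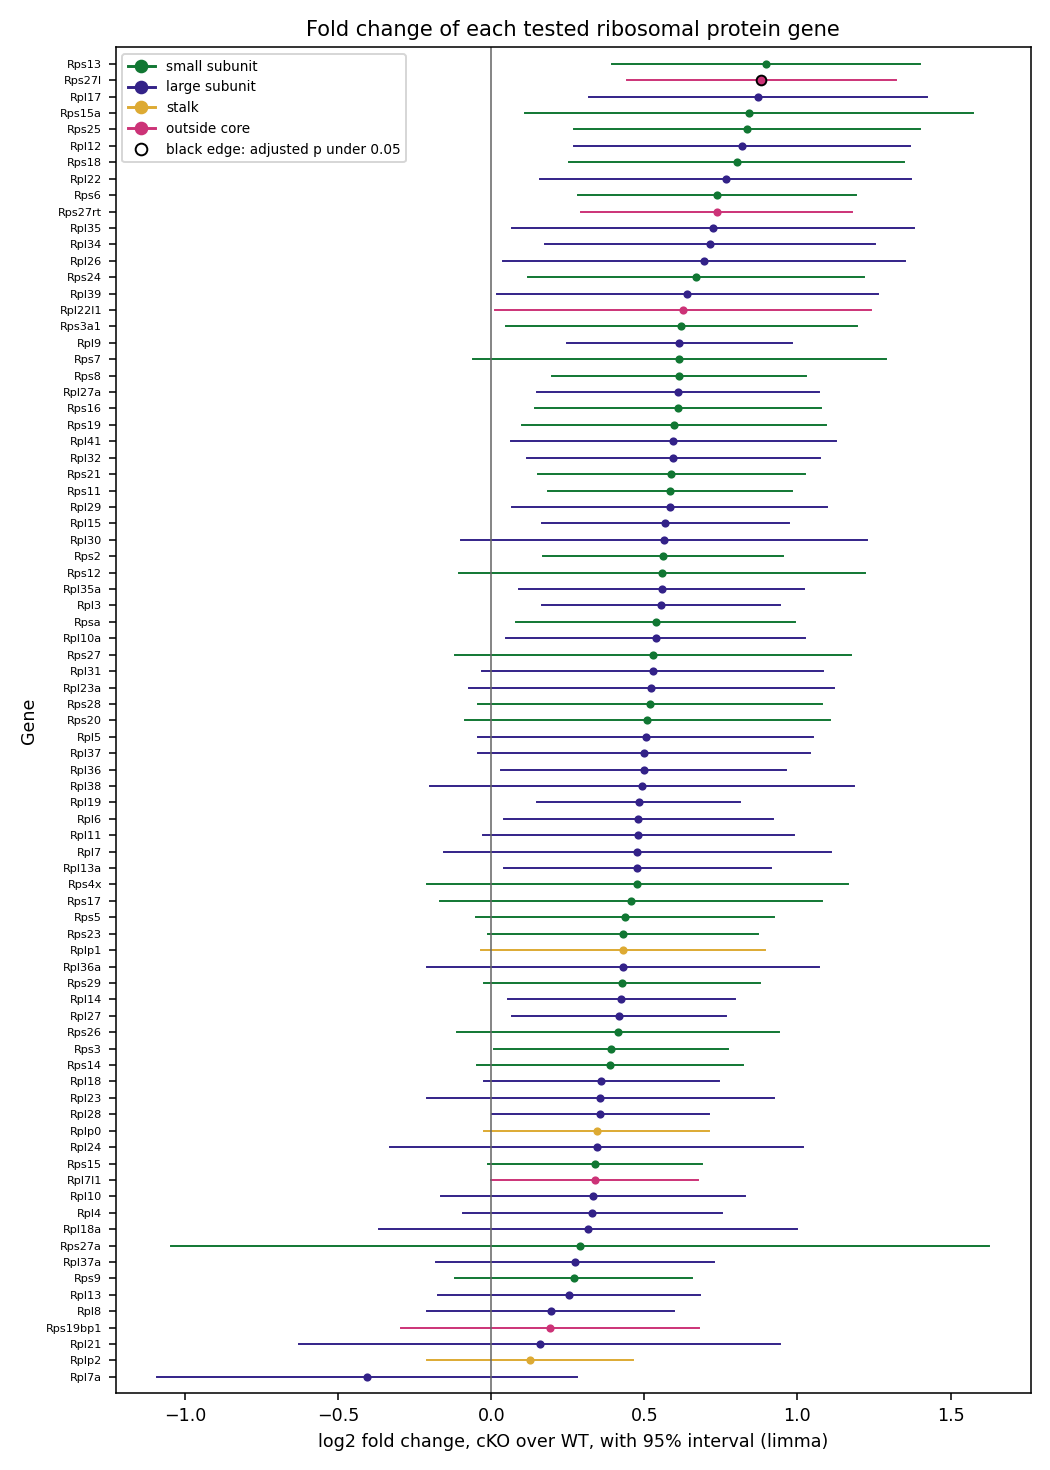
Each row is a tested ribosomal protein gene, placed by its log2 fold change, cKO over WT, on the log2(value + 1) scale, with the 95% interval from limma; colour gives the part of the ribosome and a black edge marks an adjusted p under 0.05. All genes but Rpl7a lie to the right of 0, 41 of the 81 intervals lie wholly above 0, and Rps27l alone carries the black edge.

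The height of the family varied more between cKO mice than between WT mice. The difference of each gene from its WT mean on the log2(value + 1) scale had a median over the 81 genes of -0.13, 0.25, 0.19, -0.11 and -0.20 in WT 1, 3, 4, 5 and 6. In cKO 1 to 5 it was 1.18, 0.28, 0.78, -0.04 and 0.38. The corresponding medians over all genes tested lay between -0.001 and 0.023 in all 10 libraries. The deposited values are counts over a library size factor, which can by itself hold such medians level. These medians are therefore no check on the shift of the family. In cKO 1 the median ribosomal protein gene stood 2.27-fold above WT and in cKO 3 1.72-fold, whereas cKO 4 was at the WT level. The order of cKO 1 and cKO 3 depended on the scale. As a share of the reads in each library, the family was larger in cKO 3 (3.19%) than in cKO 1 (2.64%). The SD of the library medians within groups was 0.365, not far below the difference between the groups.

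On the normalised scale the same 2 libraries carried the highest values gene by gene. The split of the counts between them depends on that scale. The highest of the 10 values fell in cKO 1 for 55 of the 81 genes (19.4% of all genes tested) and in cKO 3 for 22 (14.2%), in WT 4 for 3 and in cKO 5 for 1. In cKO 1, 69 of the 81 genes exceeded every WT value (29.9% of all genes tested), and in cKO 3 71 did (29.3%). In cKO 5, 39 did (24.1%), in cKO 2 29 (20%) and in cKO 4 6 (20.7%). Without cKO 1 the median log2 fold change was 0.34 and 77 of 81 genes were above 0 (50.8% of all genes). Without both cKO 3 and cKO 5 it was 0.45, with 79 of 81 above 0 (51.4% of all genes). Without cKO 4 it was 0.65, and 18 of the 81 genes passed the test, all higher in cKO, against 1.34% of all genes called higher. No ribosomal protein gene passed when any WT library, cKO 1, cKO 3 or cKO 5 was left out. DESeq2 on all 10 libraries called 15, all higher (2.43% of all genes), and 14 of these were among the 18. The number of genes past the threshold thus depended on the libraries and on the method.

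**Figure D2:**
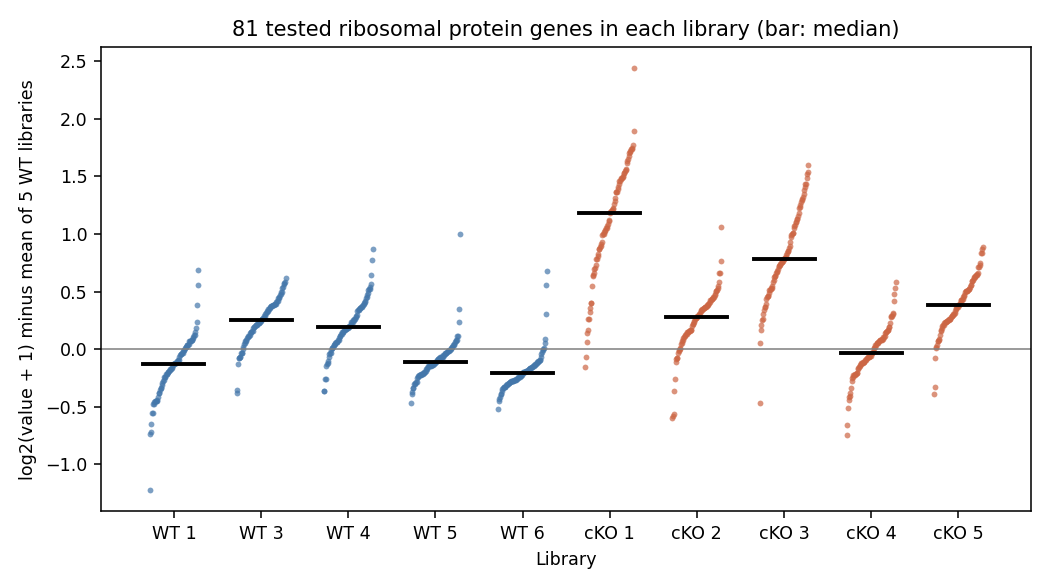
Each point is a tested ribosomal protein gene in a library, given as log2(value + 1) minus the mean of the 5 WT libraries, and the bar is the median of the 81 genes. The bars of cKO 1 (1.18) and cKO 3 (0.78) stand highest, cKO 2 and cKO 5 are near the top of the WT libraries or above it, and cKO 4 (-0.04) lies among the WT libraries.

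Small-subunit genes had a median log2 fold change of 0.55, and all 30 tested were above 0 (0.27 to 0.90), none of them past the test. Rps13, a small-subunit protein at the interface with the large subunit, had the largest fold change of all. It measured 917, 1385, 1958, 1362 and 1309 normalised reads in WT 1, 3, 4, 5 and 6 and 2497, 2806, 4094, 1677 and 2074 in cKO 1 to 5. Only cKO 4 fell within the WT range, and the log2 fold change was 0.90 ± 0.24 (SE), with a limma adjusted p of 0.0726.

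Rps15a, a conserved protein that binds small-subunit RNA early in assembly, measured 2846, 3573, 2984, 2246 and 2325 in WT and 10254, 3639, 8021, 2271 and 4299 in cKO. Values in cKO 1 and cKO 3 were far above the WT range, cKO 2 was just above it and cKO 4 was near its lower end. The log2 fold change was 0.84 ± 0.34 (SE, adjusted p = 0.211, limma). Rps25, which lies on the head of the small subunit and is needed for initiation at some viral internal entry sites, measured 2734, 3431, 3581, 2558 and 2507 in WT and 9362, 4173, 7451, 2956 and 4540.3 in cKO. Again cKO 4 alone lay within the WT range (log2 fold change 0.84 ± 0.27 SE, adjusted p = 0.121).

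Rps18, a protein of the small-subunit head, measured 2799, 3325, 3201, 2433 and 2519 in WT and 7669, 3719, 7402, 2649 and 5249 in cKO (log2 fold change 0.80, adjusted p = 0.123, limma). Rps6, the substrate of the S6 kinases, measured 3889.6, 4453, 5329, 3458 and 3254 in WT and 8293, 6352, 9437, 4448 and 6037 in cKO (0.74, adjusted p = 0.0960). In both genes cKO 4 lay within the WT range and the other cKO libraries above it.

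Rps27a, which is translated as a fusion of ubiquitin to a ribosomal protein, followed a different order of libraries. It measured 1173, 1887, 1242, 3208 and 1186 in WT and 8669, 1066, 2554, 951 and 1274 in cKO. The value in cKO 1 was the largest upward difference of any tested ribosomal protein gene in any library, 2.44 on the log2 scale, while cKO 2 and cKO 4 lay below every WT value. The fitted log2 fold change was 0.29 (95% interval -1.05 to 1.63), but 0.74 with DESeq2 and 0.73 with edgeR and TMM factors.

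Large-subunit genes had a median log2 fold change of 0.50, with 42 of 43 above 0 and none past the test. Rpl17, located near the exit of the peptide tunnel, measured 973, 1017, 1355, 889.8 and 1023 in WT and 2941, 1768, 2767, 939 and 1861 in cKO (log2 fold change 0.87, adjusted p = 0.104, limma). Rpl12, part of the stalk base, measured 2573, 2995, 2995, 2563 and 2169 in WT and 7384, 3583, 7403, 2598 and 4317 in cKO (0.82, adjusted p = 0.118). In both genes every cKO library but cKO 4 was above the WT range.

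Rpl22, an RNA-binding protein that is not essential for ribosome function, measured 1741, 2502, 1853, 1888 and 1668 in WT and 5587, 2221, 5169.5, 1748 and 3214 in cKO (log2 fold change 0.76, adjusted p = 0.171, limma). Here cKO 2 also lay within the WT range. Rpl5 and Rpl11, which bind Mdm2 when free of the ribosome, had log2 fold changes of 0.50 and 0.48, with adjusted p of 0.307 and 0.294 (limma).

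Rpl19, found at the interface of the subunits, had groups that did not overlap. It measured 3354, 3359.6, 3818, 2897 and 2674 in WT and 5058, 4359.8, 4845, 3948 and 4183 in cKO. All 5 cKO values exceeded all 5 WT values, which fixes the exact two-sided permutation p at 0.00794, the smallest that 5 against 5 allows. Rpl19 was named with its values known, so this p adds nothing to the separation itself. The log2 fold change was 0.48 ± 0.16 (SE), with a limma adjusted p of 0.126. Rpl19 and Rps27l were the 2 of 81 genes (2.47%) whose groups did not overlap with cKO higher, against 1.86% of all genes tested. No gene of the family had all cKO values below all WT values, against 3.01% of all genes.

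Rpl7a, which also lies in the large subunit and hosts small nucleolar RNAs in its introns, was the only tested gene with a lower mean in cKO. It measured 218, 392, 936, 533 and 816 in WT and 458, 336, 369, 386 and 389 in cKO. The WT libraries spread over a wide range and the cKO values fell inside it. Its log2 fold change was -0.41 (95% interval -1.09 to 0.28, limma adjusted p = 0.517). It was -0.71 when WT 1 was left out and -0.19 when WT 4 was.

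The stalk genes, whose products recruit the translation factors that hydrolyse GTP, had the lowest median log2 fold change of the 4 classes, 0.34. Rplp0, the base of the stalk, had a mean of 7036 ± 1003 normalised reads in WT and 8943 ± 1449 in cKO (SD over 5 libraries each; log2 fold change 0.34). Rplp1 had 6388 ± 1108 and 8867 ± 2897 (0.43, and 0.28 without cKO 1). Rplp2, its partner in the stalk dimer, measured 1247, 1325, 1919.8, 1341 and 1204 in WT and 1319.9, 1628, 1554, 1541 and 1545 in cKO, with a log2 fold change of 0.13 (95% interval -0.21 to 0.46), or 0.26 after scaling by totals without mitochondrial and ribosomal protein genes. The cKO values of Rplp2 all lay inside the WT range, also in cKO 1, where the median of the family was highest on this normalised scale. Adjusted p for the stalk genes was 0.3, 0.305 and 0.702 (limma).

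Among the genes outside the core set, Rps27l rose in cKO. It encodes a close relative of Rps27, is induced by p53 and its product binds Mdm2. The gene lies at chr9:66946086-66949516 in the deposited table (mm10). It measured 2289, 2999, 3188, 2643 and 2496 normalised reads in WT and 6698, 3895, 7293, 3759.5 and 4286 in cKO. Every cKO library, cKO 4 included, lay above every WT library. The means were 2723 ± 367 and 5186 ± 1676 (SD, n = 5 each), the fitted log2 fold change was 0.88 (95% interval 0.44 to 1.32), and the limma adjusted p was 0.0479. The exact two-sided permutation p was 0.00794, the smallest possible here and the value that such a separation fixes. The call was close to the threshold: it held under 12 of 24 alternative settings, with adjusted p from 0.00221 to 0.160 over all 24. It was lost when any WT library, cKO 1, cKO 3 or cKO 5 was left out, with log2 fold changes of 0.74 to 0.94 in these fits.

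Rps27rt, a retrogene copy of Rps27, measured 1156, 1448, 1301, 1227 and 1180.3 in WT and 1951, 1785, 3609, 1438 and 2244 in cKO (log2 fold change 0.74, adjusted p = 0.0897, limma). Rps27 itself, a zinc-binding protein of the small subunit, measured 3113, 2059.5, 1934, 1708 and 1982 in WT and 5871, 2613, 4433, 1552 and 2480.2 in cKO (0.53, adjusted p = 0.364). Rps27rt was above WT in all cKO libraries but cKO 4, and Rps27 exceeded its highest WT value only in cKO 1 and cKO 3. Rpl22l1, the paralog of Rpl22, had 679.9 ± 149 and 1135 ± 572 normalised reads (SD over 5 libraries each; log2 fold change 0.63, adjusted p = 0.262). Rpl7l1, which resembles Rpl7 and acts in ribosome assembly, had a log2 fold change of 0.34 (adjusted p = 0.272). Rps19bp1, which codes for a protein that binds Rps19, had 0.19 (adjusted p = 0.688). Without cKO 1 the log2 fold change fell to 0.29 for Rps27, 0.39 for Rpl22l1 and 0.23 for Rpl7l1. For Rps19bp1 it lay between 0.10 (without WT 1) and 0.30 (without WT 4).

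**Figure D3:**
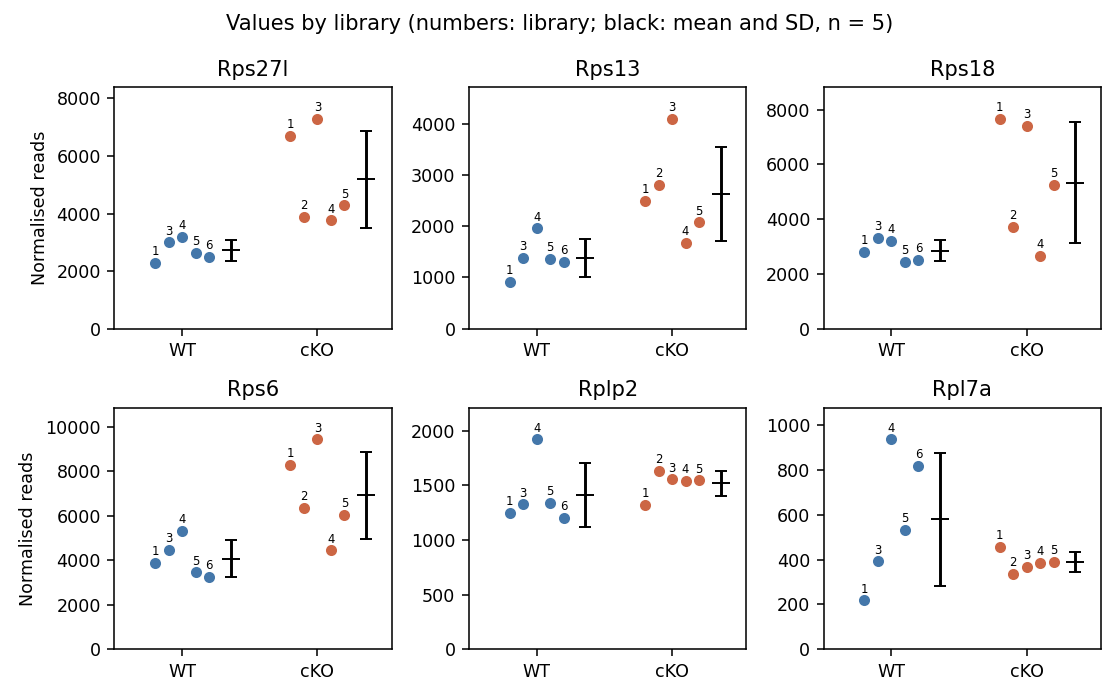
Each panel shows normalised reads of a gene in the 5 WT and 5 cKO libraries, numbered by library, with the mean and SD in black. Rps27l separates the groups, Rps13, Rps18 and Rps6 overlap only through cKO 4, and Rpl7a and Rplp2 show cKO values inside the WT range.

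Whether a gene outside the core set moved apart from its core partner was tested by the log2 ratio of the pair within each library, not per length. The test covered the 5 pairs in which the gene outside the core set passed the filter. Of these genes, Rps19bp1 is not a copy of its partner but codes for a protein that binds Rps19. For Rps27l over Rps27 the ratio was 0.36 ± 0.470 in WT and 0.71 ± 0.392 in cKO (SD over 5 libraries each), a difference of 0.35 with an exact two-sided permutation p of 0.254. For Rpl22l1 over Rpl22 it was -1.52 ± 0.227 and -1.66 ± 0.176 (SD, n = 5 each; exact permutation p = 0.294). The ratio of Rps19bp1 to Rps19 was -4.76 ± 0.159 in WT and -5.16 ± 0.213 in cKO, a difference of -0.40 with an exact permutation p of 0.0159 and 0.0794 after Benjamini-Hochberg adjustment over the 5 pairs. None of the 5 pairs passed the adjusted threshold, and the other 4 had adjusted exact permutation p of 0.489 to 0.659. Rpl3l, Rpl39l and Rpl36al had too few reads for such a ratio.

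Levels differed widely between genes when divided by the gene length in the table, which is the authors' length of all exons and not of the transcript in use. The median over the core genes was 1394 normalised reads per kilobase in WT. Averaged over the 10 libraries, which lets the cKO values weigh in, the 5 highest were Rplp1, Rps3a1, Rpl41, Rps14 and Rps27l. Rplp1 had 12802 ± 2221 normalised reads per kilobase in WT and 17769.8 ± 5806 in cKO (SD over 5 libraries each). Rps3a1, Rpl41 and Rps14 had WT means of 6876, 7142 and 7313 per kilobase. Rps27l had 3337 ± 449.7 in WT and 6356 ± 2054 in cKO per kilobase. In WT alone it stood below Rplp0 (4241), Rps15 (4032), Rpl36 (3810.2) and Rps27rt (3375), so that it was among the 5 highest only with the cKO libraries included.

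The 5 lowest were Rpl39l, Rpl3l, Rpl36al, Rps10 and Rpl24. Rpl3l, the striated-muscle counterpart of Rpl3, was at 0 in 7 of the 10 libraries, and Rpl39l, best known from testis, was also at 0 in 7. Rpl36al had 5.04 ± 3.32 normalised reads in WT and 5.81 ± 3.77 in cKO (SD over 5 libraries each). These 3 genes and Rps10 were below the filter and were not tested. Rps10 had 9.94 ± 4.86 and 9.32 ± 4.58 normalised reads and Rpl24 had 35.6 ± 12.9 and 46.7 ± 21.7 (SD, n = 5 each), although both encode core proteins of every ribosome.

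Ribosomal protein genes have many near-identical retrotransposed copies, and the sources used here do not say how reads with several matches were treated. The table held 144 rows named as ribosomal protein pseudogenes, for 50 parent genes, and 5 of these rows were labelled protein-coding. Copies that carry other names were not counted, so the shares below can be too low. For 3 parents the pseudogene rows held more reads than the parent. Rps10 averaged 9.63 normalised reads over the 10 libraries against 1371 in its pseudogene rows (99.3% of the pair), 1208 of them in Rps10-ps2. Rpl17 had 1553 against 4265 (73.3%) and Rpl21 481 against 606 (55.8%). The share was 39.8% for Rps12 and 39.0% for Rpl7a. Values of these parent genes are therefore uncertain as measures of the parent alone. The same may hold for genes without such rows, such as Rpl24 with a mean of 41.2. It may also hold for Rps27 and its retrogene copy Rps27rt.

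The summed pseudogene rows were highest in cKO 3 and cKO 1. Their sum was 11279, 13457, 14834, 10779.8 and 10394 normalised reads in WT 1, 3, 4, 5 and 6 and 22917, 16728, 23698, 12187 and 15827 in cKO 1 to 5. Only cKO 4 lay within the WT range. Of the 62 rows tested, 57 had a higher mean in cKO, against 51% of all genes tested, and the median log2 fold change was 0.43. A single row of the 62, Rps13-ps2, passed the test, where 0.441% of all genes were called higher. It rose from 117 ± 15.7 to 214 ± 49.4 normalised reads (SD over 5 libraries each; log2 fold change 0.84, limma adjusted p = 0.0421). Its parent Rps13 had the largest fold change of the family. Pseudogene rows may hold reads of their parents, as the handling of multiply matching reads is not known. Their values are therefore no separate evidence on the family.

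The GC content of the transcripts went with the differences in some libraries. Across the 81 genes Pearson's r between GC content and the difference from the WT mean was -0.38 in cKO 1 and -0.23 in cKO 3, beside -0.42 and -0.22 over all genes tested. It was positive in WT 4 (0.31) and cKO 4 (0.20), and lay between -0.17 and 0.11 in the other 6 libraries. Over all genes tested r was -0.35 in WT 1. Genes share library and depth, and no p is given. In cKO 1 the median difference was 1.36 for the 27 genes of lowest GC content (39.1% to 48.6%), 1.18 for the middle 27 and 0.89 for the 27 of highest GC content (52.9% to 62.4%). In cKO 3 these medians were 0.88, 0.75 and 0.78. Over the groups the median log2 fold change was 0.56, 0.52 and 0.48. After removal of the GC trend of each library, an alternative chosen after seeing the data, the median log2 fold change of the 81 genes was 0.53 and 80 were above 0 (50.5% of all genes). Rps27l was again the single gene past the test (0.704% of all genes called higher), with a limma adjusted p of 0.0370 (range over all alternatives 0.00221 to 0.160).

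**Figure D4:**
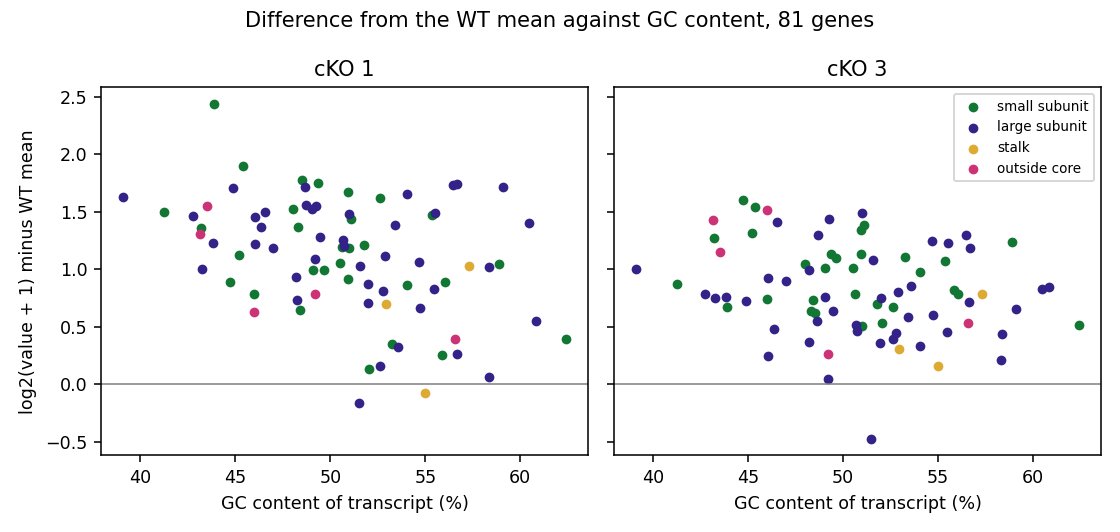
GC content of the transcript in percent is plotted against the difference from the WT mean on the log2(value + 1) scale for the 81 tested genes, coloured by part of the ribosome, for cKO 1 and cKO 3. The points of cKO 1 slope downward (r = -0.38), with a median of 0.89 in the 27 genes of highest GC content.

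Among ribosome components that carry other names, Rack1 and Fau did not pass the test. Rack1, a scaffold on the small subunit, had 5165 ± 828 normalised reads in WT and 6853 ± 1185 in cKO (SD over 5 libraries each; log2 fold change 0.40, adjusted p = 0.240, limma). Fau, which encodes a small-subunit protein fused to a ubiquitin-like sequence, had a log2 fold change of -0.09 (adjusted p = 0.843, limma). Its sign was not stable, at 0.01 after scaling by library totals. Genes for elongation factors and other TOP messengers had a median log2 fold change of 0.30, with 16 of 17 above 0 and none past the test. The smallest p in this list belonged to Eef1b2, a subunit of the exchange factor of elongation (0.54, adjusted p = 0.147), and Naca, of the nascent chain complex (0.53, adjusted p = 0.210).

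Ribosome assembly factors had a median of 0.48, with 28 of 30 above 0 and none past the test. Ncl, the nucleolar protein nucleolin, had 1003 ± 73.8 and 1608 ± 389 normalised reads, and Fbl, the methyltransferase fibrillarin, 136 ± 24.3 and 193 ± 18.3 (SD, n = 5 each). Log2 fold changes were 0.65 and 0.52, with adjusted p of 0.0792 and 0.131 (limma). For both, all cKO libraries lay above all WT libraries, cKO 4 included. Host transcripts of small nucleolar RNAs, spliced noncoding RNAs that also start with a pyrimidine tract, had a median of 0.62 with 8 of 8 tested above 0 and none past the test. Snhg6 had a log2 fold change of 0.81 (adjusted p = 0.200) and Snhg1 0.79 (adjusted p = 0.251). Their median difference from the WT mean was 1.09 in cKO 1, 1.14 in cKO 3 and -0.13 in cKO 4, the same libraries at the top and bottom of the cKO group as for the ribosomal protein genes.

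Other parts of the translation apparatus were read in the same way, with no test of one list against another. Mitochondrial ribosomal protein genes, which build the separate ribosome of that organelle, had a median log2 fold change of 0.25, with 70 of 77 above 0 and none past the test, led by Mrpl41 (0.61, adjusted p = 0.112, limma) and Mrps5 (0.61, adjusted p = 0.124). Initiation factors had a median of 0.11 (15 of 23 above 0, none past the test), with Eif4g3 at 0.60 (adjusted p = 0.0587) and Eif3i at 0.49 (adjusted p = 0.171). The RNA polymerase I machinery, which transcribes ribosomal RNA, had a median of 0.28 (10 of 11 above 0, none past the test). Polr1a, its largest subunit, had 0.67 (adjusted p = 0.128), and the promoter factor Taf1c -0.55 (adjusted p = 0.245).

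Regulators of ribosomal protein synthesis had a median log2 fold change of 0.01, with 9 of 16 above 0 and none past the test. Mdm2, the ubiquitin ligase bound by free Rpl5 and Rpl11, had 1667 ± 122 normalised reads in WT and 1195 ± 173 in cKO (SD over 5 libraries each), and all cKO values were below all WT values (log2 fold change -0.49, adjusted p = 0.106, limma). Eif4ebp1, the mTORC1 target that restrains cap-dependent initiation, had -0.81 (adjusted p = 0.116).

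**Figure D5:**
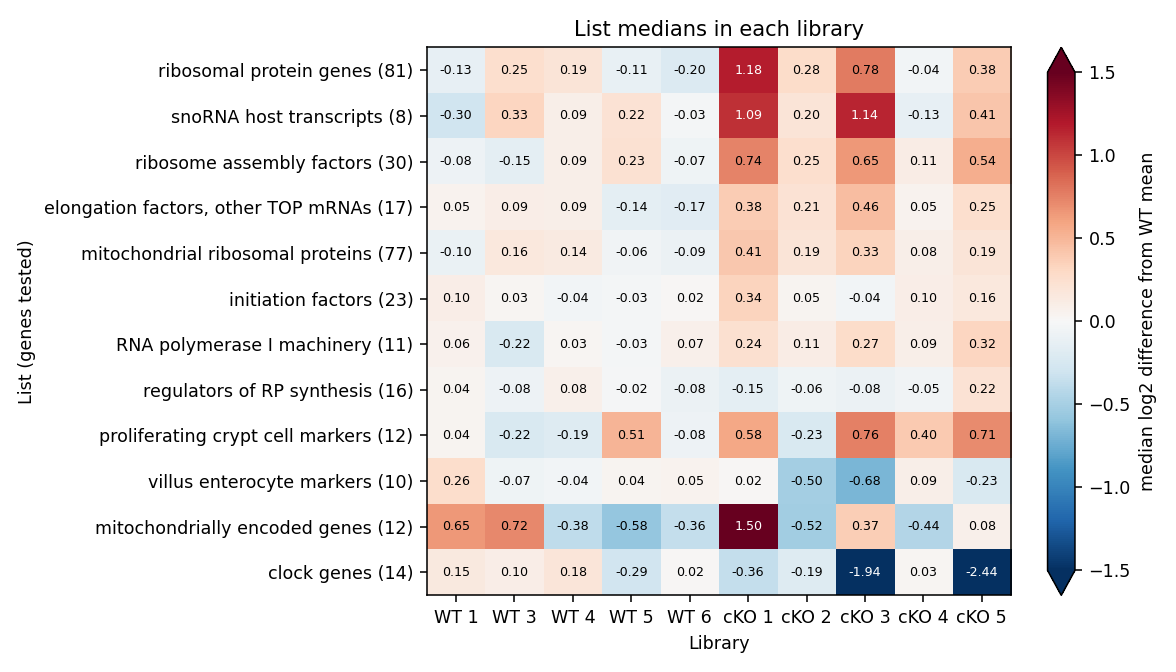
Colour gives the median log2 difference from the WT mean for each list of genes (rows, with the number of genes tested) in each library (columns). The ribosomal protein genes, the small nucleolar RNA hosts and the assembly factors share their strongest colour in cKO 1 and cKO 3, and clock genes stand out in cKO 3 and cKO 5 instead.

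Markers of cells that differ in ribosome content were read beside these values. Proliferating crypt cell markers had a median log2 fold change of 0.45 with 10 of 12 above 0 and none past the test, and their summed level ran from 2291 to 3248 normalised reads in WT and from 2118 to 5231 in cKO. By library their median difference was 0.58, -0.23, 0.76, 0.40 and 0.71 in cKO 1 to 5, and in WT it ran from -0.22 in WT 3 to 0.51 in WT 5. In the cKO group these markers and the ribosomal protein genes were both highest in cKO 1, cKO 3 and cKO 5 (ribosomal protein medians 1.18, 0.78 and 0.38). Elsewhere the order differed: WT 5 was above cKO 4 in these markers, with ribosomal protein medians of -0.11 and -0.04. Villus enterocyte markers had a median of -0.20 with 2 of 10 above 0 and none past the test, and their sum ran from 960568 to 1195770 in WT and from 794894 to 1488180 in cKO. Fibroblast markers had a median of 0.56 with 6 of 6 above 0, and Col3a1 (0.75, limma adjusted p = 0.0357) and Col1a1 (1.02, adjusted p = 0.0426) rose. Their sum ran from 4847 to 6066 in WT and from 6211 to 9835 in cKO, and their median difference was highest in cKO 4 (0.83). Enteroendocrine markers had a median of 0.06 with only 3 of 6 above 0, and 1 of the 6, Chga, rose (0.80, limma adjusted p = 0.0410). Over all genes tested, 0.441% were called higher. No marker of stem, Paneth, goblet, B and plasma, T, myeloid, smooth muscle or acinar cells passed the test. Paneth cell markers varied widely between libraries, with a median difference of -0.12, 1.09, 0.96, -0.79 and -1.03 in WT 1, 3, 4, 5 and 6 and 1.39, -0.05, -0.49, -0.87 and 0.42 in cKO 1 to 5. They were high in WT 3, WT 4 and cKO 1, and below the WT mean in cKO 3, where the ribosomal protein genes were high. The part of any of these cell types in the values of the ribosomal protein genes was not tested.

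The authors' deposited table, whose libraries per comparison were not checked here, lists 3 of the 85 genes with an adjusted p under 0.05, all higher, against 0.96% of all its rows. In the authors' deposited table these are Rps27l (log2 fold change 0.82, adjusted p 0.0151), Rpl12 (0.83, 0.0352) and Rps27rt (0.66, 0.0453). It lists 82 of the 85 with a positive log2 fold change. The share of 0.96% is over all 24368 rows, including those below the filter of the main test, which kept 14062.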

How the data were processed

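RNA was measured in 10 libraries of proximal jejunum. The tools named in the submitters' processing notes are CASAVA, HISAT2 2.0.5 with build mm10, featureCounts 1.5.0-p3 and DESeq2 1.20.0. The sources used here do not give the strand setting, the annotation release or the handling of multiply matching reads. The deposited values are a normalised signal per gene, which the values themselves show to be counts over a library size factor: every value was a whole multiple of the smallest step within 0.001. The authors' deposited table also gives log2 fold changes and adjusted p-values. Another 2 columns of per-sample values match no label and were not used.

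As the values are not counts, the main test was limma 3.58.1 (R 4.3.3) with intensity trend and robust moderation on log2(value + 1), with genotype alone, over 14062 genes with a mean of at least 10, Benjamini-Hochberg adjusted over all of them at 0.05. Log2 fold changes are on this scale, which understates low genes. Intervals are at 95%. Alternatives were other pseudocounts, filters and scalings, edgeR 4.0.16 and DESeq2 1.42.0 on recovered reads, a replicate block, leaving out libraries, and a GC correction added later. The limma script was tested on simulated data. Nothing beyond 1 library per mouse separates biological from technical spread.

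The genes and the other lists were chosen with earlier results of these data known, and no p is adjusted over a list alone. Genes named were those past the test, up to 10 with the largest positive and negative fold changes at a mean of at least 100, those outside the core set with their partners, the 5 highest and lowest per kilobase and, from other lists, genes past the test or up to 2 with the smallest p. Rps27a, Rpl5, Rpl11, Rpl19 and the stalk genes were added to these with their values known. GC content came from GENCODE vM21, which gave all 85 genes on the same chromosome, and promoter sequences from RefSeq.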

Additional observations from a re-analysis of the deposited data

Results flagged for a closer look

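Among 116 groups of 5 values, WT or cKO for each quantity named, 11 had a highest or lowest value that lay farther from its neighbour than Dixon's critical ratio of 0.71 allows, and chance flags about 1 in 20 groups. In the WT group, Rpl17 was highest in WT 4, at 1355 normalised reads against 1023 in the next library, and Rplp2 in WT 4 at 1919.8 against 1341. Rpl22 was highest in WT 3 at 2502 against 1888, and Rpl36a in WT 3 at 1744 against 1243. Rps27 was highest in WT 1, at 3113 against 2059.5. In the cKO group, 4 values of cKO 1 stood off: Rps27a at 8669 against 2554, Fau at 8157 against 6048, Eif3i at 1862 against 1325 and, as the lowest value, Rplp2 at 1319.9 against 1541. Outside the translation genes, Per2 was lowest in WT 3 at 529 against 689.8, and Col3a1 highest in WT 6 at 1542 against 1189.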

How the results depend on the processing

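The median log2 fold change of the 81 ribosomal protein genes stayed positive under all 24 alternatives, from 0.34 to 0.65 when a library was left out, with 77 to 80 of the genes above 0 in these fits. It was 0.61 and 0.64 after scaling by library totals, with and without mitochondrial and ribosomal protein genes. The median of all genes moved to 0.11 and 0.14. Such a scaling multiplies each library by a single factor and so shifts all its genes nearly alike. The family stood 0.50 above all genes in both and in the main test, a distance that could hardly change and is no separate check. The mitochondrial ribosomal protein median was 0.37 under scaling by totals without mitochondrial and ribosomal protein genes, against 0.25. The number of genes past the threshold was 1 in the main test and ran from 0 to 18 when a library was left out, with 18 without cKO 4. It was 15 with DESeq2 and 0 with limma without trend and robust moderation and without cKO 3 and cKO 5. Over all genes, calls ran from 30 to 611 when a library was left out, and the split of higher against lower calls was 62 to 124 in the main test, 69 to 76 and 72 to 72 with the totals scalings, and 335 to 415 with DESeq2. Replicate numbers 1, 3, 4 and 5 occur in both groups, but same-numbered libraries had correlated deviations of 0.118, 0.0218, -0.105 and 0.0957, so the numbers were not taken as pairs. With a replicate block in those 8 libraries 0 ribosomal protein genes passed, as in the same 8 libraries without the block, and over all genes 134 passed against 89; the median log2 fold change was 0.52 in both. No ribosomal protein gene named by the fixed rule changed direction in these fits. Fau, at -0.09 in the main test, was at 0.01 and 0.04 with the totals scalings and 0.07 after the GC correction, and Elavl1, at -0.08, was at 0.02 and 0.05 with the totals scalings. Rps13, Rpl17, Rps15a, Rps25, Rpl12, Rps18, Rpl22, Rps6 and Rps27rt each passed in 2 alternatives, DESeq2 and without cKO 4. The causes of these changes were not tested.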
